A study of Mus musculus with 9 samples.

Results

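The cytosolic ribosomal proteins are the protein components of the ribosome that translates nuclear-encoded messages. Their genes were taken as those whose symbol is Rpl or Rps and a digit, together with Rplp0, Rplp1, Rplp2 and Rpsa, leaving out the Rps6k kinases, pseudogene names and names that end in l. On these arrays 46 of 18194 genes met that rule through a probe set annotated to 1 symbol, and the probe set that was brightest on average over the 9 arrays stood for the gene. Of the 46, 22 name proteins of the large subunit and 21 proteins of the small subunit. The other 3, Rpl22l1, Rpl7l1 and Rps19bp1, meet the letters of the rule without naming a classical ribosomal protein and are described apart. Expression was measured with Affymetrix mouse arrays in bone marrow stromal cells sorted as CD45.1-Ter119- from mice of the FVB/NJ strain. There were 3 arrays of wild type mice (WT) and 6 of leukemic recipients, of which 3 were in the early phase with leukemic cells at 1 to 5% of the marrow (E) and 3 in the medium phase with 5 to 50% (M). The labels call the arrays of a group biological replicates, so p-values measure the spread between those, and they do not name the leukemia used.

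Each ribosome holds a single copy of nearly every ribosomal protein, and cells therefore make these proteins in matched amounts. Their mRNAs are among the most plentiful in dividing blood-forming cells, and many of them begin with a tract of pyrimidines, the 5′ terminal oligopyrimidine or TOP motif, through which mTORC1 signalling controls their translation. Loss of 1 copy of several of these genes causes Diamond-Blackfan anaemia in humans, and free Rpl5 and Rpl11 bind Mdm2 and so stabilise p53 when ribosome assembly fails.

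The DNA around the annotated starts of 8 members is shown because the pyrimidine tract lies at the start of the message and because these members cover the range of the results below: Rpl14, Rps6, Rps15 and Rpl37 fell in M, Rpl27a had a higher signal in M, and Rpl7a, Rpl35 and Rplp0 did not pass any test. Each line holds 15 bases before and 15 bases from the start, 5′ to 3′ on the strand of the gene (RefSeq, GRCm38.p6), and capitals mark a run of at least 6 letters C or T that opens with C.
Rpl14, chr9:120571502-120571531, plus strand: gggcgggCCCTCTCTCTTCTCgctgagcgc
Rps6, chr4:86857353-86857382, minus strand: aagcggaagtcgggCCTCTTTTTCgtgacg
Rps15, chr10:80292416-80292445, plus strand: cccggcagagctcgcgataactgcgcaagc
Rpl37, chr15:5116598-5116627, plus strand: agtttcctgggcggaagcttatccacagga
Rpl27a, chr7:109519180-109519209, plus strand: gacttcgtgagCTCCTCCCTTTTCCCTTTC
Rpl7a, chr2:26910792-26910821, plus strand: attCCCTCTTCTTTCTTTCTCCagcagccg
Rpl35, chr2:39005117-39005146, minus strand: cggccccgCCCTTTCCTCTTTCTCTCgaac
Rplp0, chr5:115559452-115559481, plus strand: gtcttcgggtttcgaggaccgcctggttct
Such a run, searched on the strand of the gene alone and anywhere in the 30 bases, was in 23 of the 47 starts (48.9%) of the 41 symbols that matched the table, against 7384 of all 32851 starts (22.5%). Starts of members lower in M than in WT held it in 6 of 15 (40.0%), and starts of members not called there in 16 of 30 (53.3%). The window is narrow and an annotated start can lie beside the true one, so a missing run says only that these letters are not in these bases.

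The arrays differed in more than these genes. The values are log2 MAS5 signals with the same trimmed mean on every array, the brightest probe set of an array read between 15.13 and 15.41, and the 9097 genes at or above the median brightness were tested with limma. The 12 probe sets for added poly-A RNAs averaged 0.99 higher in M than in WT (exact permutation test of 3 against 3 arrays, two-sided, p = 0.1, the smallest this design allows), 1.05 higher in M than in E (p = 0.1) and 0.06 lower in E than in WT (p = 0.7). Scaling on them lowers the M arrays against the others by these amounts, so all signs below are those of the deposited scale. The labels do not give the amount of these RNAs added to each sample, so which scale is nearer the true one was not tested. All 10 mesenchymal markers and all 9 granulocyte markers rose in M against WT by limma at an adjusted p under 0.05, with list means by array of 12.01 to 12.30 in M and 8.29 to 8.61 in WT for the mesenchymal list and of 12.34 to 12.70 in M and 7.98 to 8.35 in WT for the granulocyte list. Pan-leukocyte markers rose in 5 of 5 tested (list means of 9.77 to 10.36 in M and 8.79 to 9.03 in WT) and B lineage markers in 3 of 3 tested (6.51 to 7.43 in M and 4.86 to 5.35 in WT). The B lineage list means cover 6 genes, of which 3 were under the brightness filter and went both ways. Of these, Ebf1 averaged 9.70 in M and 4.55 in WT, Cd79a 2.22 and 2.92, and Pax5 4.19 and 4.95. The 5 endothelial markers were under the brightness filter, with list means of 7.39 to 7.99 in M and 5.05 to 5.61 in WT. Cell cycle genes fell in 9 of 10, with list means of 12.27 to 12.80 in M and 13.15 to 13.25 in WT. Erythroid markers fell in 3 of 7, near the array-wide share, with list means of 10.85 to 11.78 in M on both sides of the 11.22 to 11.39 in WT. Of all tested genes 43.5% fell in M against WT and 25.3% were higher. In E against WT, 5 of 9 granulocyte markers rose and 2 fell (9.35 to 9.51 in E and 7.98 to 8.35 in WT), 2 of 10 mesenchymal markers, Col1a1 and Col1a2, rose (8.40 to 8.56 in E and 8.29 to 8.61 in WT), and 1 of 5 pan-leukocyte markers fell (8.39 to 8.48 in E and 8.79 to 9.03 in WT). No erythroid marker passed there, with list means of 10.99 to 11.16 in E and 11.22 to 11.39 in WT. Of the 7 tested, 2 had an unadjusted p under 0.05, as had 1279 of all 9097 tested genes. None of these markers was at 0 on any array. In such bulk samples fewer cells of a type and less RNA per cell cannot be told apart, and the part of these shifts in the results below was not tested.

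Signals of the ribosomal protein genes fell into a bright and a dim class of probe sets. The chosen probe set of 34 of the 46 members (73.9%) averaged at log2 14 or more, close to the top of the range of these arrays, and the other 12 spread from 13.88 for Rpl22l1 down to 2.01 for Rps16. Brightness here belongs to a probe set and ranks no gene's RNA above another's. Rps29, a zinc-binding protein of the small subunit, had the brightest chosen probe set, with 15.19, 15.16 and 15.38 in WT, 15.24, 15.37 and 15.39 in E and 15.34, 15.16 and 15.10 in M. Rps16, also of the small subunit, had the dimmest, with 1.39, 0.26 and 3.20 in WT, 0.60, 1.54 and 1.78 in E and 3.96, 2.16 and 3.18 in M, and it was the only member under the brightness filter. The 45 others were tested.

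**Figure D1:**
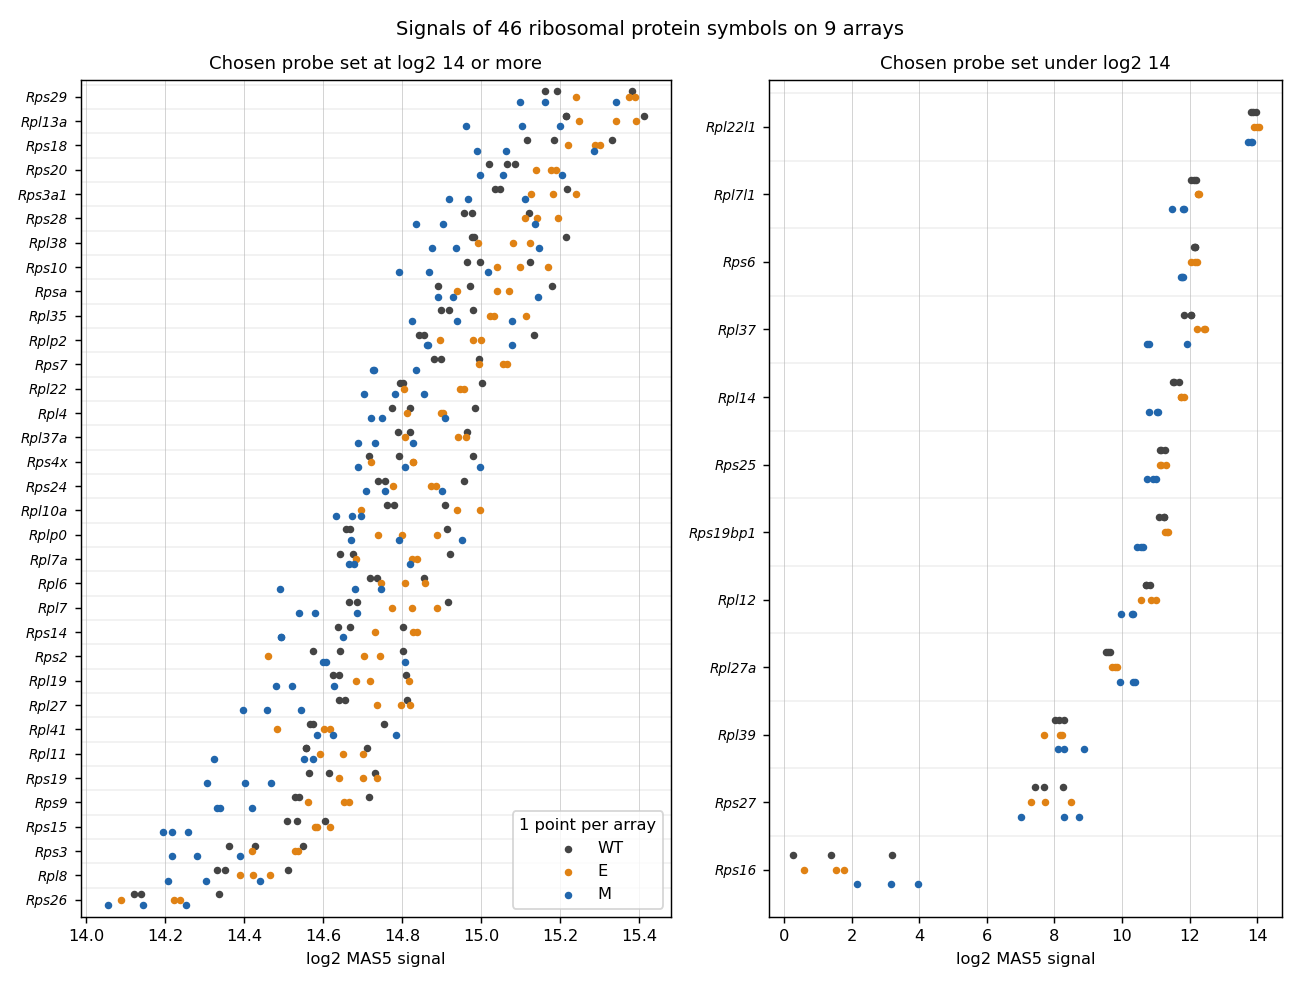
Log2 MAS5 signal (horizontal axis) of the chosen probe set of each of the 46 symbols (rows) on each of the 9 arrays, 1 point per array, coloured by WT, E and M, with the 34 members at log2 14 or more on the left and the 12 others on the right on a wider axis. The arrays of a group overlap those of the other groups for most bright members, while Rpl14, Rps6, Rps25 and Rpl12 lie lower on all 3 M arrays than on any other array and Rpl27a lies higher there on the deposited scale.

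Bright members moved together from array to array. WT replicate 3 was the highest WT array for 33 of the 34, E replicate 1 the lowest E array for 33, and M replicate 1 the highest and M replicate 3 the lowest M array for 33 and 30. The same arrays were at these extremes for 99, 80, 103 and 106 of the 117 other genes at log2 14 or more (84.6%, 68.4%, 88.0% and 90.6%), so the order within groups was largely shared with other bright genes. Averaged over all 46 symbols, the signal was 13.57, 13.52 and 13.71 in WT, 13.59, 13.70 and 13.67 in E and 13.60, 13.46 and 13.46 in M. The M and WT arrays overlapped in this average, and so did the M and E arrays. It includes Rps16, under the brightness filter, at 3.96 in M replicate 1, 0.60 in E replicate 1 and 0.26 in WT replicate 2. The median over the 46 was 14.65, 14.64 and 14.81 in WT, 14.69, 14.82 and 14.80 in E and 14.68, 14.59 and 14.52 in M. By that median all M arrays lay below all E arrays, while M and WT overlapped. The average of the 34 bright members still overlapped between M and E (14.83 in M replicate 1, 14.79 in E replicate 1). The share of the members was taken over the summed linear signal of the chosen probe sets of all 18194 genes. It was 4.77%, 4.76% and 5.22% in WT, 4.84%, 5.14% and 5.12% in E and 4.99%, 4.63% and 4.46% in M.

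In the fit of all 9 arrays, early-phase stroma did not differ detectably from wild type in any ribosomal protein gene. In E with WT, 0 of 45 members passed limma's test at an adjusted p under 0.05, against 2.11% of all tested genes (0.462% higher and 1.65% lower). An unadjusted p under 0.05 was found for 1 member, Rpl14, and for 1279 of all 9097 tested genes. The median difference was 0.05 (log2) over the members and 0.01 over all tested genes. It was above 0 for 40 of the 45, but ran from 0.02 to 0.11 when single arrays were left out and was -0.01 after quantile normalization. Arrays of E and WT did not overlap for 8 members (17.8%), against 29.7% of all tested genes.

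The smallest adjusted p in that comparison belonged to Rpl14, a large subunit protein, with 11.75, 11.83 and 11.73 in E and 11.68, 11.55 and 11.52 in WT. All 3 E arrays lay above the WT arrays, and the difference was 0.19 (SE 0.08, adjusted p = 0.334). The largest difference was that of Rpl37, a small zinc-binding protein of the large subunit, with 12.22, 12.44 and 12.41 in E and 12.04, 12.03 and 11.83 in WT and a difference of 0.39 (SE 0.24, adjusted p = 0.527). The shared spread of that fit includes a wide M group, described below; without M replicate 3 the adjusted p of Rpl37 was 0.00472, and with only the 6 arrays of E and WT it was 0.00716, the only member called in either case.

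In the medium phase 13 members fell against wild type and 1 had a higher signal, by limma at an adjusted p under 0.05. That is 28.9% of 45 members lower, where 43.5% of all tested genes were lower, and 1 member higher, where 25.3% of all were. The median difference between M and WT was -0.10 over the members and -0.19 over all tested genes, with the members between -0.81 and 0.63. Arrays did not overlap for 14 members (31.1%) against 72% of all tested genes. By subunit, 5 of 22 large subunit members fell, with a median of -0.10, and 6 of 20 small subunit members fell, with a median of -0.10. Without M replicate 1 the count of members that fell was 20. Scaling on the poly-A probe sets put 44 of 45 members lower in M with a median of -1.09, and moved the median of all tested genes to -1.18. Set against the median of all genes tested, the members' median was higher by 0.09 on the deposited and the spike-in scale and by 0.26 after quantile normalization, and lower by 0.21 when dim genes were tested too.

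**Figure D2:**
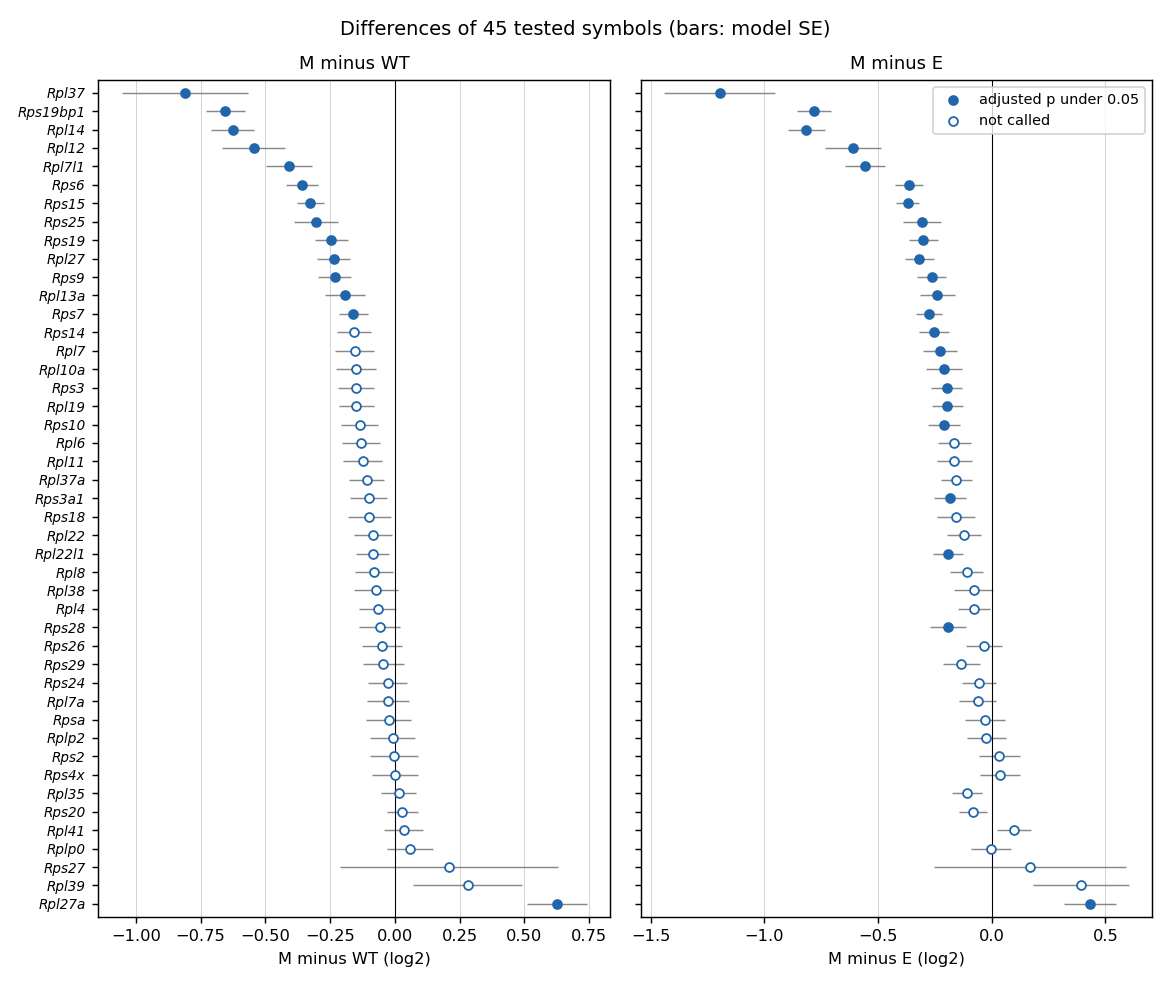
Differences of the 45 tested symbols, M minus WT on the left and M minus E on the right, in log2 of the deposited signal; points are the model's estimates, bars its SE, and filled points passed limma's test at an adjusted p under 0.05. Most points lie near 0 on its left side, Rpl37, Rps19bp1, Rpl14, Rpl12 and Rpl7l1 stand lowest, and Rpl27a is the only filled point above 0, a sign that turns under spike-in scaling (-0.37 and -0.62).

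Among small subunit members, Rps6, the substrate of the S6 kinases downstream of mTORC1, had 12.15, 12.12 and 12.15 in WT, 12.21, 12.16 and 12.05 in E and 11.74, 11.78 and 11.82 in M. The M arrays all lay below the others, WT and E overlapped, and the difference between M and WT was -0.36 (SE 0.06, adjusted p = 0.000373). A second probe set of Rps6, at a mean of 6.10 and so under the brightness filter, did not share it, and the mean of both gave an adjusted p of 0.274. Rps15, whose tail reaches towards the decoding site, had the largest fall among the bright members, with 14.53, 14.51 and 14.60 in WT, 14.58, 14.62 and 14.58 in E and 14.26, 14.22 and 14.20 in M. M lay under both other groups, and the difference from WT was -0.33 (SE 0.05, adjusted p = 0.000179), a fold of 1.25. It was -0.12 (adjusted p = 0.365) with the plain probe sets, whose ID carries no letter before its ending.

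Rps19, the gene most often mutated in Diamond-Blackfan anaemia in humans, read 14.61, 14.56 and 14.73 in WT, 14.64, 14.74 and 14.70 in E and 14.47, 14.40 and 14.31 in M. All M arrays were below all WT and E arrays, with a difference from WT of -0.24 (SE 0.06, adjusted p = 0.0056). Rps9, which binds the 18S rRNA early in assembly, read 14.54, 14.53 and 14.72 in WT, 14.56, 14.66 and 14.65 in E and 14.42, 14.34 and 14.33 in M. M was again below both groups without overlap, by -0.23 (SE 0.06, adjusted p = 0.00762) from WT, and this call was lost with the mean of its probe sets and with the plain ones.

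Rps25, which human and yeast ribosomes need to start on several viral messages, read 11.28, 11.13 and 11.16 in WT, 11.16, 11.29 and 11.14 in E and 10.92, 10.999 and 10.75 in M. Its M arrays were the lowest, with a difference from WT of -0.30 (SE 0.08, adjusted p = 0.00748). Rps7, which can bind Mdm2, averaged 14.76 ± 0.06 in M and 14.92 ± 0.06 in WT (SD, n = 3 each), a difference of -0.16 (SE 0.06, adjusted p = 0.0243). The call of Rps7 ended in 7 of 22 alternatives, among them leaving out WT replicate 3 or M replicate 2, the mean of its probe sets and the replicate block (adjusted p of up to 0.17).

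Among large subunit members, Rpl14 had 11.68, 11.55 and 11.52 in WT, 11.75, 11.83 and 11.73 in E and 11.02, 11.05 and 10.79 in M. The M arrays were well apart from both other groups, and the difference from WT was -0.63 (SE 0.08, adjusted p = 5.42e-05), a fold of 1.54. Rpl12, a protein at the base of the stalk, had 10.82, 10.70 and 10.71 in WT, 10.57, 10.84 and 11.003 in E and 10.30, 10.32 and 9.98 in M. M lay below both groups, by -0.55 (SE 0.12, adjusted p = 0.00207) from WT.

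Rpl37 had the largest fall of all members, with 12.04, 12.03 and 11.83 in WT, 12.22, 12.44 and 12.41 in E and 10.75, 10.81 and 11.92 in M. M replicates 1 and 2 lay far below WT, but M replicate 3 lay between the WT arrays, so M and WT overlapped. The difference from WT was -0.81 (SE 0.24, adjusted p = 0.0121) and stayed under the threshold in all alternatives, at an adjusted p of up to 0.0483. The SD of its M arrays, 0.66, was the second largest of the tested members in that group, after the 0.90 of Rps27.

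Rpl27, another Diamond-Blackfan gene, read 14.64, 14.65 and 14.81 in WT, 14.74, 14.82 and 14.80 in E and 14.54, 14.46 and 14.40 in M. M was below both groups without overlap, by -0.24 (SE 0.06, adjusted p = 0.00666) from WT. Rpl13a, which in human monocytes can leave the ribosome to silence inflammatory messages, read 15.22, 15.22 and 15.41 in WT, 15.25, 15.39 and 15.34 in E and 15.20, 15.10 and 14.96 in M. M was under WT by -0.19 (SE 0.08, adjusted p = 0.0436) with arrays that just failed to overlap, and the call ended in 12 of 22 alternatives, among them leaving out WT replicate 1 or 3, M replicate 2 or 3, or any E array (adjusted p of up to 0.162).

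Rpl27a, a large subunit protein, was the only member with a higher signal in M on the deposited scale, and its sign turned under spike-in scaling (-0.37) and median centring (-0.43). It read 9.64, 9.60 and 9.52 in WT, 9.86, 9.78 and 9.70 in E and 10.37, 9.94 and 10.32 in M. The 3 M arrays lay above the others, and the difference was 0.63 (SE 0.11, adjusted p = 0.000577) from WT and 0.43 (SE 0.11, adjusted p = 0.00578) from E. Its second probe set was far dimmer, at a mean of 3.09, and the mean of both ended both calls.

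Members that did not pass in either comparison with M include the stalk proteins and the laminin receptor protein. Rplp0, which anchors the stalk that recruits elongation factors, read 14.67, 14.66 and 14.91 in WT, 14.74, 14.89 and 14.80 in E and 14.95, 14.79 and 14.67 in M. Rplp2, which pairs with Rplp1 on that stalk, read 14.84, 14.86 and 15.13 in WT, 14.90, 15.0001 and 14.98 in E and 15.08, 14.87 and 14.86 in M. Their groups overlapped throughout, and the differences between M and WT were 0.06 (SE 0.09, adjusted p = 0.575) for Rplp0 and -0.01 (SE 0.09, adjusted p = 0.939) for Rplp2.

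Rpsa, a small subunit protein also known as the laminin receptor, read 14.97, 14.89 and 15.18 in WT, 14.94, 15.04 and 15.07 in E and 15.14, 14.93 and 14.89 in M, with a difference between M and WT of -0.02 (SE 0.09, adjusted p = 0.815). Rpl41, the shortest ribosomal protein, read 14.57, 14.57 and 14.75 in WT, 14.48, 14.60 and 14.62 in E and 14.78, 14.63 and 14.58 in M, with 0.03 (SE 0.07, adjusted p = 0.706) on the chosen probe set and a negative sign with the mean of its probe sets (-0.26) and under spike-in scaling (-0.96). For both genes WT and M arrays were intermingled. Rpl38, which in mouse embryos is needed to translate some Hox messages, read 14.98, 14.98 and 15.21 in WT, 14.99, 15.12 and 15.08 in E and 15.15, 14.94 and 14.88 in M, with -0.07 (SE 0.09, adjusted p = 0.473).

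Rpl22, which mice need for T cell development, read 14.80, 14.80 and 15.003 in WT, 14.81, 14.95 and 14.96 in E and 14.86, 14.70 and 14.78 in M, with -0.09 (SE 0.07, adjusted p = 0.313) between M and WT. Its next probe set, at a mean of 14.38, read 14.16, 14.12 and 14.15 in M and 14.43, 14.41 and 14.58 in WT, a difference of -0.33, and the third, at 10.01, went the other way by 0.24. The choice of probe set therefore decided what was seen of this gene. Rpl11, the Mdm2-binding protein, read 14.56, 14.56 and 14.71 in WT, 14.59, 14.70 and 14.65 in E and 14.57, 14.55 and 14.32 in M, with -0.12 (SE 0.08, adjusted p = 0.166) from WT and -0.16 (SE 0.08, adjusted p = 0.0739) from E, its M replicate 3 standing lower than all others.

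The 3 symbols named apart differed among themselves. Rps19bp1, a nucleolar protein that binds Rps19, read 11.24, 11.10 and 11.24 in WT, 11.37, 11.32 and 11.26 in E and 10.62, 10.55 and 10.44 in M, and Rpl7l1, an assembly factor related to Rpl7, read 12.12, 12.03 and 12.17 in WT, 12.25, 12.27 and 12.25 in E and 11.82, 11.79 and 11.48 in M. M lay below WT and E for both, by -0.66 (SE 0.08, adjusted p = 1.91e-05) and -0.41 (SE 0.09, adjusted p = 0.00168) from WT. Rpl22l1, the paralog of Rpl22, read 13.81, 13.87 and 13.95 in WT, 13.99, 14.05 and 13.90 in E and 13.84, 13.71 and 13.81 in M and did not pass between M and WT (-0.09 (SE 0.06, adjusted p = 0.258)). Without these 3, 11 of 42 members fell between M and WT and 19 of 42 between M and E.

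M with E uses the same M arrays as M with WT, and E with WT shares the other arrays, so the comparisons are not independent. Between M and E 22 of 45 members fell (48.9%, against 43.9% of all tested genes) and 1, Rpl27a, was higher (26.1% of all were, and 70% of all were called in either direction). The median was -0.16 over the members and -0.19 over all tested genes, and arrays did not overlap for 23 members (51.1%), against 73.1% of all tested genes. By subunit, 8 of 22 large and 11 of 20 small subunit members fell, with medians of -0.14 and -0.19. All 13 members that fell against WT fell against E, and 9 more passed only against E: Rpl7, Rpl10a, Rpl19, Rpl22l1, Rps3, Rps3a1, Rps10, Rps14 and Rps28. The count against E was 13 without E replicate 2 and between 15 and 29 without any other array.

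The largest falls were those of Rpl37, -1.20 (SE 0.24, adjusted p = 0.00112), and Rpl14, -0.82 (SE 0.08, adjusted p = 6.21e-06). For both, every M array lay below every E array. Rps15 fell by 0.37 (SE 0.05, adjusted p = 6.23e-05) and Rps6 by 0.36 (SE 0.06, adjusted p = 0.000324), close to their differences from WT. The mean of the probe sets ended both calls, with an adjusted p of 0.081 for Rps15 and 0.29 for Rps6, and the plain probe sets turned the sign of Rps15 (0.0368, adjusted p = 0.795). Rps14, which is lost in the human 5q- syndrome, read 14.67, 14.64 and 14.80 in WT, 14.73, 14.84 and 14.83 in E and 14.65, 14.49 and 14.49 in M. Its M arrays lay below all E arrays and M replicate 1 lay among the WT arrays, with -0.25 (SE 0.07, adjusted p = 0.00558) from E and -0.16 (SE 0.07, adjusted p = 0.0552) from WT.

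The 9 that passed only against E had differences from E between -0.25 and -0.18. Rps28, at an adjusted p of 0.0496, lost its call in 15 of 22 alternatives. Rpl7, Rps3, Rps3a1, Rps10, Rpl10a, Rpl19 and Rpl22l1 lost theirs without E replicate 2, and Rps14 kept its call in all 22. Whether the difference from E exceeds that from WT is the E with WT comparison, in which none of them passed.

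Over the groups, the E mean was the highest of the 3 for 38 of the 45 tested members and the M mean the lowest for 36. The M mean was the highest for 5, Rpl27a, Rpl39, Rpl41, Rps4x and Rps27, of which Rpl27a alone passed a test and all of which read lower in M than in WT under spike-in scaling. Rpl39, which lines the exit tunnel, read 8.12, 8.28 and 8.03 in WT, 7.70, 8.24 and 8.15 in E and 8.89, 8.10 and 8.29 in M, and Rps27, a zinc-binding protein of the small subunit, read 8.25, 7.70 and 7.44 in WT, 8.49, 7.71 and 7.31 in E and 7.003, 8.27 and 8.74 in M. Both were dim and wide, with differences between M and WT of 0.28 (SE 0.21, adjusted p = 0.258) and 0.21 (SE 0.42, adjusted p = 0.676).

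The members' values also differed with the brightness of their probe sets. Of the 34 members at log2 14 or more, 6 fell in M against WT (17.6%) and none was higher, with a median of -0.09. Of the 117 other genes at log2 14 or more, 69 fell (59.0%) and 2 were higher, with a median of -0.21. Over all 151 such genes 49.7% were called lower and 1.32% higher. Between M and E, 14 of the 34 members (41.2%) and 83 of the 117 others (70.9%) fell, where 64.2% of the 151 were called lower and 1.99% higher. The members and the others were not matched in brightness within that range. Members made up 9 of the 10, 17 of the 20 and 29 of the 50 brightest tested genes. The counts are descriptions of chosen lists, without a test between them.

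The largest difference of a bright member between M and WT was a fold of 1.25, that of Rps15, and the median absolute difference was 0.09 for the bright members, 0.22 for the other bright genes and 0.47 over all tested genes. The SD between replicates of the bright members was small as well, with a median of 0.10 in WT, 0.06 in E and 0.10 in M. Whether probe sets this close to the top of the range report the full size of a change was not tested. Of the 11 tested members under log2 14, 7 fell in M against WT, 1 was higher (Rpl27a, on the deposited scale) and the median was -0.36, where 43.5% of all tested genes fell, 25.3% were higher and the median was -0.19. In a fit of only the 4549 brightest genes, 2768 fell, 698 were higher and the median was -0.34. The 11 members were not matched in brightness to either set. Of those 11, 8 are classical ribosomal proteins, among which 5 fell: Rps6, Rpl37, Rpl14, Rps25 and Rpl12.

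**Figure D3:**
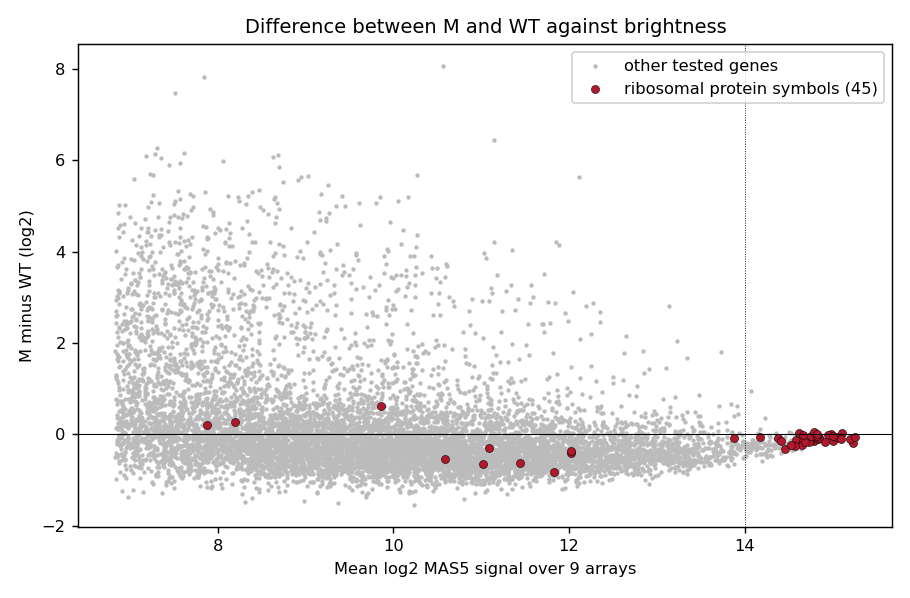
Difference between M and WT (log2, vertical axis) against the mean log2 signal over the 9 arrays (horizontal axis) for the 9097 tested genes, with the 45 tested ribosomal protein symbols in red and a dotted line at log2 14. The 34 bright symbols lie in a narrow band between -0.33 and 0.06 at the right end, and the 11 others spread from -0.81 to 0.63 on the deposited scale.

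Several members are measured by more than 1 probe set on the same arrays. Of the 46 chosen probe sets 14 are plain ones, and whether a probe set reads 1 gene alone was not tested. The 46 symbols have 100 one-symbol probe sets, and 23 of the symbols have more than 1, up to 6. Of the 62 probe sets at log2 14 or more, 55 read lower in M than in WT on the deposited scale, with a median of -0.10. The 17 between 10 and 14 had a median of -0.41, with 15 lower in M. The 7 between 8 and 10 had a median of 0.18, with 3 lower, and the 14 under 8 had a median of -0.22, with 8 lower.

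Probe sets of 1 gene could differ widely. For Rps4x, the X-linked small subunit protein, the chosen probe set averaged 14.82 and read 14.79, 14.72 and 14.98 in WT, 14.72, 14.83 and 14.83 in E and 14.997, 14.81 and 14.69 in M, while another of the same symbol averaged 3.08. The groups overlapped on the chosen probe set, with a difference between M and WT of 0.00 (SE 0.09, adjusted p = 0.993). For Rps3, which sits at the mRNA entry channel, the chosen probe set gave -0.15 (SE 0.07, adjusted p = 0.0724). Its second probe set, at a mean of 11.31, gave -0.62, with all M arrays below all others. The third, at a mean of 3.87 and so under the brightness filter, gave 1.41. The sign of Rps3 between M and E turned to 0.69 with the mean of its probe sets, and that between M and WT to 0.21 (adjusted p = 0.406). For Rps10, another Diamond-Blackfan gene, 1 bright probe set stood apart with a difference of -1.09, with M arrays of 12.68, 13.80 and 14.50. Rpl27 had 3 bright probe sets with differences from -0.24 to -0.21, and the 4 probe sets of Rpl13a, 3 of them bright, had differences from -0.25 to -0.12.

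**Figure D4:**
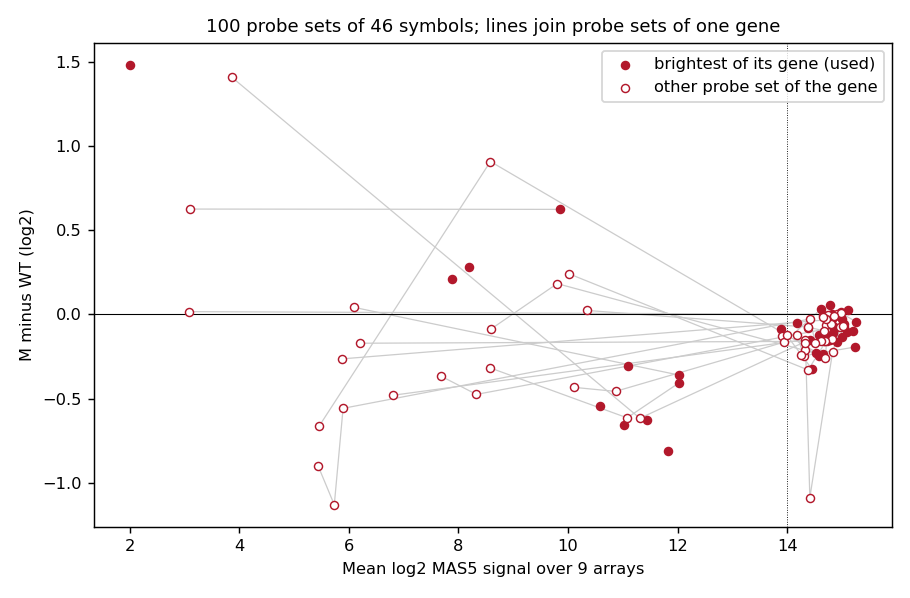
Difference between M and WT (log2, vertical axis) against mean log2 signal (horizontal axis) for all 100 one-symbol probe sets of the 46 symbols, filled for the probe set used and open for the others, with lines joining probe sets of 1 gene. Bright probe sets lie close to 0 except 1 of Rps10 at -1.09, and probe sets at lower signal scatter between -1.13 and 1.49.

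A further 27 ribosomal protein symbols appear only on probe sets that carry several symbols, among them Rpl5, Rpl10, Rpl23 and Rplp1, and are not given values of their own here. As a group, the 110 probe sets that name a ribosomal protein among several symbols were mostly bright, 78 of them at log2 14 or more. Their median difference was -0.10 between M and WT with 91 lower in M, -0.15 between M and E with 89 lower in M, and 0.04 between E and WT with 82 higher in E. The medians of the 100 one-symbol probe sets were -0.12, -0.18 and 0.05.

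Paralogs of ribosomal proteins, which the rule leaves out, held a larger change than any member. Rpl39l, a paralog of Rpl39 known from the testis, read 7.34, 7.16 and 7.62 in WT, 7.001, 6.33 and 6.57 in E and 10.15, 10.10 and 10.28 in M. All M arrays lay above all others, with a difference of 2.80 (SE 0.19, adjusted p = 2.72e-07) from WT and 3.54 (SE 0.19, adjusted p = 3.19e-08) from E, while Rpl39 itself did not pass. E and WT did not pass against each other for Rpl39l (-0.74 (SE 0.19, adjusted p = 0.0747)). Rps27l, a paralog of Rps27 that p53 can induce in human cells, read 14.29, 14.29 and 14.38 in WT, 14.46, 14.49 and 14.51 in E and 14.08, 14.03 and 13.89 in M and was lower in M, by -0.32 (SE 0.06, adjusted p = 0.000731) from WT. Fau, which encodes a ubiquitin-like protein fused to a small subunit protein, read 14.49, 14.47 and 14.65 in WT, 14.51, 14.60 and 14.59 in E and 14.40, 14.34 and 14.29 in M and fell by 0.20 (SE 0.06, adjusted p = 0.0154) from WT. Rpl3l and Rps4l were under the brightness filter, at 4.39 and 7.44 in M and 4.90 and 5.28 in WT, and were not tested.

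Genes whose products build the ribosome were lower in M in nearly all cases. Of 42 tested genes of ribosome biogenesis, 41 fell in M against WT and none was higher, with a median of -0.57, where 43.5% of all tested genes fell with a median of -0.19. Fitted alone, 2768 of the 4549 brightest genes fell, with a median of -0.34. Npm1, the abundant nucleolar chaperone, was the exception at -0.19 (SE 0.08, adjusted p = 0.0504). The strongest by p were Rrp1b, a nucleolar assembly protein, with 10.05 ± 0.08 in M and 11.33 ± 0.09 in WT (SD, n = 3 each) and -1.29 (SE 0.09, adjusted p = 3.39e-07), Rrn3, the initiation factor of RNA polymerase I, at -0.99 (SE 0.07, adjusted p = 5.36e-07), Polr1b, a subunit of that polymerase, at -1.02 (SE 0.08, adjusted p = 9e-07), and Bysl, a small subunit assembly factor, at -1.07 (SE 0.09, adjusted p = 1.7e-06). Between M and E all 42 fell, with a median of -0.71. In E with WT, Rrp12, a factor of subunit export, was the only 1 of the 42 to pass, higher in E by 0.45 (SE 0.09, adjusted p = 0.0253).

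Many translation factors were lower in M as well. Among all tested genes, 43.5% fell against WT with a median of -0.19, and 43.9% fell against E. In a fit of only the 4549 brightest genes, 2768 fell against WT with a median of -0.34, and 2743 fell against E. The lists below were not matched in brightness to either set. Of 24 initiation factors 19 fell in M against WT with a median of -0.34, led by Eif2b1, a subunit of the guanine nucleotide exchange factor of eIF2, at -0.90 (SE 0.07, adjusted p = 1.05e-06), and by the eIF3 subunit Eif3m at -0.69 (SE 0.06, adjusted p = 3.7e-06). Between M and E 20 of the 24 fell and 1, Eif5, was higher (0.28 (SE 0.11, adjusted p = 0.0323)). Of 7 elongation and termination factors 5 fell against WT, with a median of -0.40, the release factor Etf1 at -0.69 (SE 0.06, adjusted p = 4.38e-06) and the translocase Eef2 at -0.40 (SE 0.07, adjusted p = 0.000447) among them. Of 13 other messages known to carry a TOP motif, some of them in the lists just named, 8 fell with a median of -0.26. Among those, Hnrnpa1, an RNA-binding protein, was at -0.62 (SE 0.06, adjusted p = 4.92e-06), while Eef1a1, Tpt1 and Pabpc1 did not pass, at 0.08, -0.01 and 0.02. Median by median these lists lay between the 45 tested ribosomal protein members (-0.10) and the biogenesis genes (-0.57). That order held for the 34 members at log2 14 or more (-0.09) but not for the 11 dimmer ones. Their median of -0.36 was below those of the initiation and TOP lists and above that of the elongation list. The 8 classical proteins among the 11 had a median of -0.33, between those of the TOP and initiation lists. No test between lists was made. In E with WT 0 genes of the initiation, elongation, TOP and mTORC1 lists passed limma's test, where 2.11% of all tested genes did. In these lists 2, 1, 2 and 2 genes had an unadjusted p under 0.05, as had 1279 of all 9097 tested genes.

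Of 11 tested genes of mTORC1 signalling and TOP control, 6 fell in M against WT and Myc was higher, where 43.5% of all tested genes fell and 25.3% were higher. Fitted alone, 2768 of the 4549 brightest genes fell and 698 were higher. Eif4ebp1 and Eif4ebp2, which hold back cap-dependent initiation until mTORC1 phosphorylates them, were at -0.44 (SE 0.06, adjusted p = 0.000113) and -0.78 (SE 0.12, adjusted p = 0.000136), and Larp1, which binds TOP messages, at -0.39 (SE 0.08, adjusted p = 0.00124). Myc, an activator of ribosome genes, read 11.45, 11.32 and 11.55 in WT, 11.72, 11.66 and 11.53 in E and 11.87, 11.83 and 11.71 in M and was at 0.36 (SE 0.08, adjusted p = 0.00247), less than the shift that spike-in scaling makes. Of the genes through which free ribosomal proteins act on p53, Mdm2 was at -0.03 (SE 0.17, adjusted p = 0.89) and Mdm4 at -0.08 (SE 0.11, adjusted p = 0.549), while Cdkn1a, a target of p53, was at 3.02 (SE 0.09, adjusted p = 1.19e-09). The 11 tested members named in Diamond-Blackfan anaemia gave 3 falls against WT, those of Rps19, Rpl27 and Rps7, with a median of -0.06. That share is smaller than the 43.5% of all tested genes that fell and near the 28.9% of all 45 tested members.

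**Figure D5:**
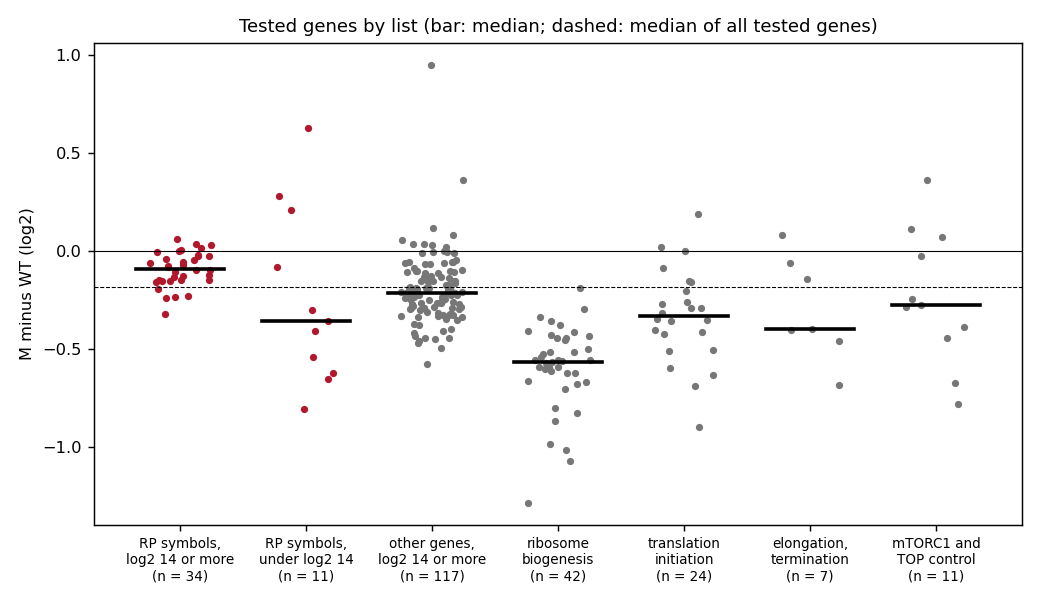
Difference between M and WT (log2 of the deposited signal, vertical axis) of each tested gene in 7 lists (horizontal axis), 1 point per gene, with a bar at each list's median and a dashed line at the median of all tested genes (-0.19). The bright ribosomal protein symbols cluster around -0.09, the 11 dimmer ones and the translation factor lists lie lower, and the ribosome biogenesis list lies lowest at -0.57.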

How the data were processed

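RNA of 9 samples of sorted bone marrow stromal cells (WT, E and M, 3 arrays each) had been amplified and labelled with a kit that primes at the 3′ end, per the labels' protocols. The deposited values are log2 signals of 45101 probe sets made by the authors with MAS5, per the submitters' processing notes, and the version is not given in the sources used here. The linear mean after trimming 2% of probe sets at each end was 500 on every array, as checked on the values. Signal over background, and not a read depth, together with the number of arrays limits the precision.

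Of the probe sets, 34958 carry 1 symbol in the platform annotation, 932 several and 9211 are not listed; the last 2 kinds were left out of the tests. Each of 18194 genes was represented by its brightest probe set, and the 9097 at or above the median (log2 6.83) were tested. Differences come from limma 3.58.1 (R 4.3.3), with all 9 arrays in a single linear model and empirical Bayes with an intensity trend, with p-values adjusted by Benjamini-Hochberg over the 9097 genes and called under 0.05. The scripts were tested on simulated data.

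Members and lists were chosen with earlier results of these data known. Members given with all arrays are those called in E with WT, the 10 largest rises and falls with non-overlapping arrays in M with WT and M with E, a set of well-known members as far as measured, and the extremes of brightness and of probe set spread; others of the 46 are named in passing. Genes of other lists are the 4 with the smallest p in M with WT or were named after their values were seen. Rps27a is not analysed here. Alternatives were other normalizations and scalings, pseudocounts, filters, probe set choices, variance models and a replicate block, and leaving out each array.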

Additional observations from a re-analysis of the deposited data

How the results depend on the processing

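Scaling on the poly-A probe sets and centring on the array median put 44 and 44 members lower and 0 and 0 higher in M with WT (medians -1.09 and -1.16), and 45 and 45 lower and 0 and 0 higher in M with E (medians -1.22 and -1.31). Over all tested genes they gave 972 higher and 7175 lower, and 1004 higher and 7478 lower, in M with WT, against 2306 and 3953 on the deposited scale. Median centring moved the members' median in E with WT to 0.14. Signs are given here as turned where the deposited or the alternative value passed the test. Under median centring the sign turned in M with WT for Rpl27a (-0.43), Rpl35 (-1.04), Rpl39 (-0.77), Rpl41 (-1.02), Rplp0 (-0.997), Rps20 (-1.03) and Rps4x (-1.05), without a call also for Rps27 (-0.85), and in M with E for Rpl27a (-0.71), Rpl39 (-0.75), Rpl41 (-1.05), Rps2 (-1.11), Rps27 (-0.98) and Rps4x (-1.11). Under spike-in scaling it turned in M with WT for Rpl27a (-0.37), Rpl35 (-0.98), Rpl39 (-0.71), Rpl41 (-0.96), Rplp0 (-0.94), Rps20 (-0.97), Rps27 (-0.79) and Rps4x (-0.99), and in M with E for Rpl27a (-0.62), Rpl39 (-0.66), Rpl41 (-0.96), Rps2 (-1.02), Rps27 (-0.88) and Rps4x (-1.01). Quantile normalization gave 109 genes in E with WT, 20 members lower in M with WT, and 2 higher with a median of -0.0663 in M with E.

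The mean of a gene's probe sets gave 99 genes in E with WT, 0 members higher in M with WT, and turned Rpl41 (-0.26) and Rps20 (-0.22), without a call also Rpl35 (-0.10) and Rps3 (0.21), in M with WT and Rps3 (0.69) in M with E. Plain probe sets alone gave 2 members higher with a median of -0.30 in M with WT and 2 higher and 11 lower with a median of -0.31 in M with E, where fewer members were measured, and turned Rpl41 (-0.43) and Rps24 (0.91) in M with WT and Rps15 (0.0368) and Rps24 (1.38) in M with E. A stricter filter, which left 4549 genes to test, gave 85 genes in E with WT, 3466 in M with WT and 3485 in M with E. A fit of only the 6 arrays compared gave 756 genes and 1 higher member in E with WT, against 192 and 0; the cause was not tested. The replicate number as a block gave 153, 6100 and 6248 genes and 11 and 17 lower members in the M comparisons, which changed none of these counts by over 1.5 times. Arrays with equal replicate numbers did not deviate together, with correlations of their deviations from the group means between -0.10 and 0.08 over 9 pairs.

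Leaving out 1 array gave 98 to 836 genes in E with WT, the highest without M replicate 3, 5721 to 6334 in M with WT and 5782 to 6462 in M with E. Members numbered 0 to 1 higher and 0 lower in E with WT (medians 0.02 to 0.11), 1 higher and 11 to 20 lower in M with WT (-0.15 to -0.05), and 1 to 2 higher and 13 to 29 lower in M with E (-0.22 to -0.13).

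Alternatives chosen after seeing the data centred the arrays on the members, which sets their own median near 0 by construction, and counted only members at log2 14 or more. The first gave 5 members higher with a median of 0.0059 in M with WT, and 11 higher and 9 lower with a median of 0.0104 in M with E, and turned Rpl7a (0.11), Rplp0 (0.17), Rplp2 (0.15), Rps24 (0.12), Rps26 (0.14) and Rpsa (0.15) in M with E. The other gave 0 higher and 6 lower in M with WT and 0 higher and 14 lower in M with E. Over the alternatives before these, the calls of single members ended with the sign kept in 24 cases in M with WT and 61 in M with E. New calls with the sign kept were made in 68 and 50. In 19 and 15 further cases the sign turned with a call on the deposited scale, in the alternative or in both. In 39 and 28 cases, those named above among them, a sign turned with no call on either side. Signals near the top of the range, and 3 arrays a group, limit what these counts can show.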

Other observations

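The 5 genes whose signal followed the mean of the ribosomal protein symbols most closely over the 9 arrays were Slc35c2, a sugar transporter of the Golgi (Pearson r = 0.959), Atp5g3, a subunit of the ATP synthase (0.946), Slc25a5, a mitochondrial ADP/ATP carrier (0.941), Fem1a, a substrate receptor of a ubiquitin ligase (0.939), and Eif4a1, the helicase of translation initiation (0.939). Atp5g3 read 14.34, 14.33 and 14.51 in WT, 14.39, 14.51 and 14.49 in E and 14.29, 14.14 and 14.06 in M. Its highest WT array was replicate 3 and its highest M array replicate 1, as for most bright ribosomal protein genes. Eif4a1 read 14.17, 14.14 and 14.32 in WT, 14.22, 14.35 and 14.27 in E and 14.15, 14.07 and 13.93 in M. Slc35c2 lay near the brightness filter of log2 6.83. It read 6.78, 6.68 and 7.07 in WT, 6.93, 7.14 and 7.21 in E and 6.89, 6.48 and 6.59 in M. The mean of the ribosomal protein symbols used here includes Rps16, which was under that filter. These are descriptions over 9 arrays that share groups and scaling.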
